A study of Sus scrofa with 6 samples.

Results

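Antisense long non-coding RNAs (lncRNAs) are transcripts of at least 200 nucleotides with no recognised protein-coding potential that are read from the strand opposite a gene, so that part of the RNA is complementary to exons of that gene. The transcripts described here carry the class code x in the deposited lncRNA table, the code by which assembly software marks an exonic overlap with a gene of the opposite strand. The table holds 174 such transcripts, 1 of which was left out by the rule that defined the group, leaving 173 of the 4046 lncRNA transcripts in all. They were compared across 6 libraries of skeletal muscle of the Qingyu pig (spelled Qinyu in the sample labels), a Chinese native breed sampled at 178 days of age. In this study 3 libraries were made from longissimus dorsi muscle (LDM), which the study treats as a glycolytic muscle, and 3 from psoas major muscle (PMM), which it treats as an oxidative one. The animals were female, and neither a treatment nor a genotype distinguishes the groups. Both muscles were harvested from the same set of pigs, so libraries of different muscles may share an animal. Each muscle is a mixture of fibre types and of other cells, so fewer cells of a type and less RNA per cell cannot be told apart. The table lists lncRNAs only, so the labelled tissues could not be checked against marker mRNAs.

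Antisense transcription is common in mammalian genomes. An antisense RNA can pair with the messenger of its partner gene, can interfere with its transcription or its splicing, can recruit chromatin proteins to the shared locus, or can be a by-product of an active promoter without a known role. Glycolytic fibres draw energy mainly from the breakdown of glucose and glycogen, whereas oxidative fibres are rich in mitochondria and burn fatty acids. An antisense lncRNA can therefore be described by the gene it faces, although facing a gene does not show an effect on it.

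The values are FPKM, fragment counts scaled to the length of the transcript and to the mapped depth of the library, as the authors computed them, together with the mean read coverage per base. The ratio of coverage to FPKM was constant within a library and puts 7.94, 7.24 and 8.78 gigabases behind LDM replicates 1 to 3, and 7.59, 7.52 and 7.86 gigabases behind PMM replicates 1 to 3. The library protocol kept the strand of the RNA, but alignment was run with default settings and no strand-aware counting is stated. The stated methods thus do not show whether reads of an antisense lncRNA were kept apart from reads of the gene facing it. This limit applies to every value below. LDM replicate 2 stood apart, with the highest value of the 6 libraries for 70 of the 173 antisense lncRNAs (40.5%) and for 43.3% of the other lncRNAs.

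The 173 antisense lncRNAs faced 150 different genes, of which 23 were each faced by a pair of them. The gene was given by symbol for 115 transcripts and by Ensembl identifier for 58, of which 23 were matched to a symbol. A protein-coding gene of the RefSeq annotation of Sscrofa11.1 was matched for 127 of them. Of these 127, 126 lay on the same chromosome as the RefSeq gene but 0 overlapped it by coordinates, so the positions below are given as the table lists them and are not positions on Sscrofa11.1. Chromosome 1 held 20 of the antisense lncRNAs, chromosome 13 held 19, chromosome 3 held 17 and chromosome 6 held 16. Both strands were used alike, with 88 transcripts on the plus strand and 85 on the minus strand. The median length was 1387 nucleotides and the range 227 to 14823.

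Exon number separated the antisense lncRNAs into a steadily listed and a patchy class. A single exon made up 116 of them, while 33 had 2 exons, 14 had 3, 6 had 4, 2 had 5, 1 had 7 and 1 had 9. Transcripts of more than 1 exon thus formed 33.0% of the antisense lncRNAs and 11.5% of all 4046 transcripts. Of the 57 spliced antisense lncRNAs, 53 had a value above 0 FPKM in all 6 libraries. Of the 116 single-exon ones, 27 did, and 15 had a value in 1 library alone. The values of the spliced transcripts were 0 in 13 of 342 cases, compared with 258 of 696 for the single-exon ones.

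**Figure D1:**
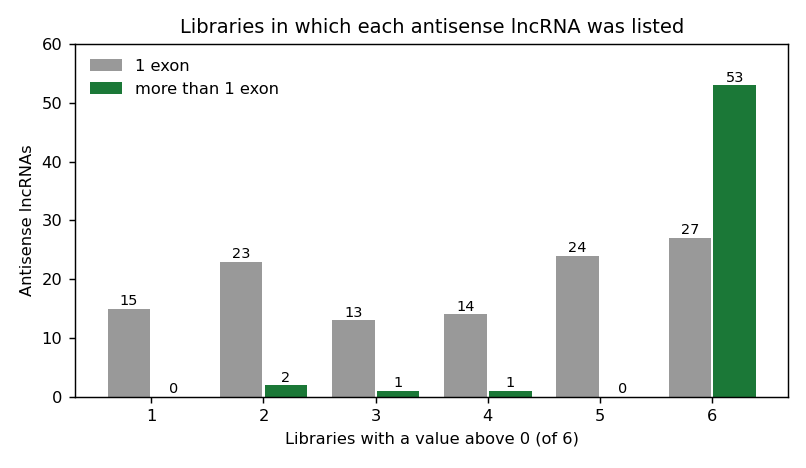
Number of antisense lncRNAs (vertical axis) by the number of libraries, of 6, in which they had a value above 0 FPKM (horizontal axis), with grey bars for transcripts of 1 exon and green bars for transcripts of more than 1 exon. The green bar at 6 libraries holds 53 of the 57 spliced transcripts, while the grey bars spread over 1 to 6 libraries.

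The remaining 4 spliced transcripts faced ROR1 (listed in 4 libraries), FAM92A (3), ZNF7 (2) and ENSSSCG00000012732 (2). The last of these was the lowest of all, at 0.00885 FPKM in LDM replicate 1 and 0.0313 FPKM in PMM replicate 2. The same split by exon number was present in the other classes, where 92.6% of the spliced and 35.5% of the single-exon intergenic lncRNAs were above 0 in all 3 libraries of at least 1 muscle. This was so for 94.7% of the spliced and 47.4% of the single-exon antisense lncRNAs, and for 35.7% of the single-exon lncRNAs within introns. These shares are descriptions without a test.

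The highest coverage that each antisense lncRNA reached in any library lay mostly near or above 10 reads per base. It was between 10 and 12 reads per base for 39 of the 173 and under 10 for 33. Among single-exon transcripts the lowest such value was 6.87 and the median 11.6, and among spliced ones the lowest was 0.235 and the median 17.0. For the 15 transcripts listed in 1 library alone, this coverage ran from 6.87 to 14.6, which corresponds to 22 to 278 reads of 150 bases and 0.874 to 1.83 FPKM.

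**Figure D2:**
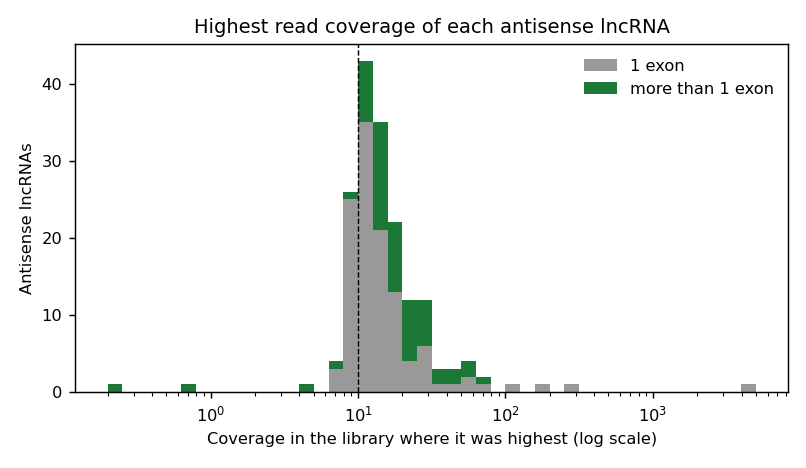
Number of antisense lncRNAs (vertical axis) by the mean read coverage per base in the library where it was highest (horizontal axis, log scale), with single-exon transcripts in grey, spliced ones in green and a dashed line at a coverage of 10. The single-exon transcripts begin at 6.87 and crowd around the line, and the median of the spliced ones is 17.0.

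Levels were low. The mean over the 6 libraries was under 1 FPKM for 105 of the 173 and above 5 FPKM for 6. The median antisense lncRNA stood at 0.486, 1.37 and 0.431 FPKM in LDM replicates 1 to 3 and at 0.901, 0.757 and 0.538 FPKM in PMM replicates 1 to 3, so that LDM held both the highest and the lowest of these medians.

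The most abundant antisense lncRNA by far was MSTRG.14595.1, a single-exon transcript of 1437 nucleotides facing the microRNA gene ssc-mir-4332, on the plus strand at chr6:869700-871136. Its level was 298, 222 and 493 FPKM in LDM and 244, 284 and 237 FPKM in PMM. LDM replicate 3 was the highest of the 6 libraries, and the ranges of the muscles overlapped. The next one, MSTRG.14590.1, lay beside it on the same strand at chr6:866483-868096, facing ENSSSCG00000025162. It stood at 25.6, 17.9 and 29.9 FPKM in LDM and 19.9, 23.1 and 24.7 FPKM in PMM. In both of these neighbours LDM replicate 3 was highest and LDM replicate 2 lowest. In the study's summary of its reads, the same libraries were the extremes for reads mapped to several places and for GC content. Both were highest in LDM replicate 3 and lowest in LDM replicate 2. Whether this bears on the values of these neighbours was not tested.

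MSTRG.3569.1, facing ENSSSCG00000017559 at chr12:27205621-27207483, was the third in level. It was at 11.2, 13.8 and 17.0 FPKM in LDM and 25.0, 19.2 and 18.9 FPKM in PMM. Every PMM library was above every LDM library, but the difference of -0.56 ± 0.32 (SE) on the scale of log2(FPKM + 1) did not pass the test (adjusted p = 0.647).

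A few antisense lncRNAs were steady across both muscles. The steadiest of the 80 listed in all 6 libraries was MSTRG.3693.1, facing PTRH2, which encodes a mitochondrial peptidyl-tRNA hydrolase. It was at 6.98, 7.47 and 6.32 FPKM in LDM and 7.97, 6.54 and 7.69 FPKM in PMM, a coefficient of variation of 9.20% over the 6 libraries. MSTRG.4848.1, facing the DNA damage sensor gene XPC, followed at 3.33, 2.81 and 3.25 FPKM in LDM and 3.89, 2.64 and 3.24 FPKM in PMM (13.7%). The third was the 3-exon MSTRG.7214.1 opposite MARCH7, which encodes a ubiquitin ligase, at 15.6%. The median coefficient of variation of the 80 was 50.3%, and the highest was 156%. The 3-exon MSTRG.10849.1, facing SEC24A, a coat component of vesicles that leave the endoplasmic reticulum, completed the 6 most abundant at 6.51, 4.81 and 8.11 FPKM in LDM and 6.67, 6.83 and 8.35 FPKM in PMM.

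The remaining one of the 6 most abundant shows an abrupt zero. MSTRG.981.1 faced OIP5, a gene for a protein that marks centromeres for assembly, and measured 3977 nucleotides at chr1:145066169-145070145. Its level in LDM was 10.1, 15.2 and 14.0 FPKM, whereas in PMM it was 11.2, 0 and 14.6 FPKM. The 0 stood in PMM replicate 2, where the level of PMM replicate 1 would have given 2220 reads. The other 5 libraries overlapped between the muscles.

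**Figure D3:**
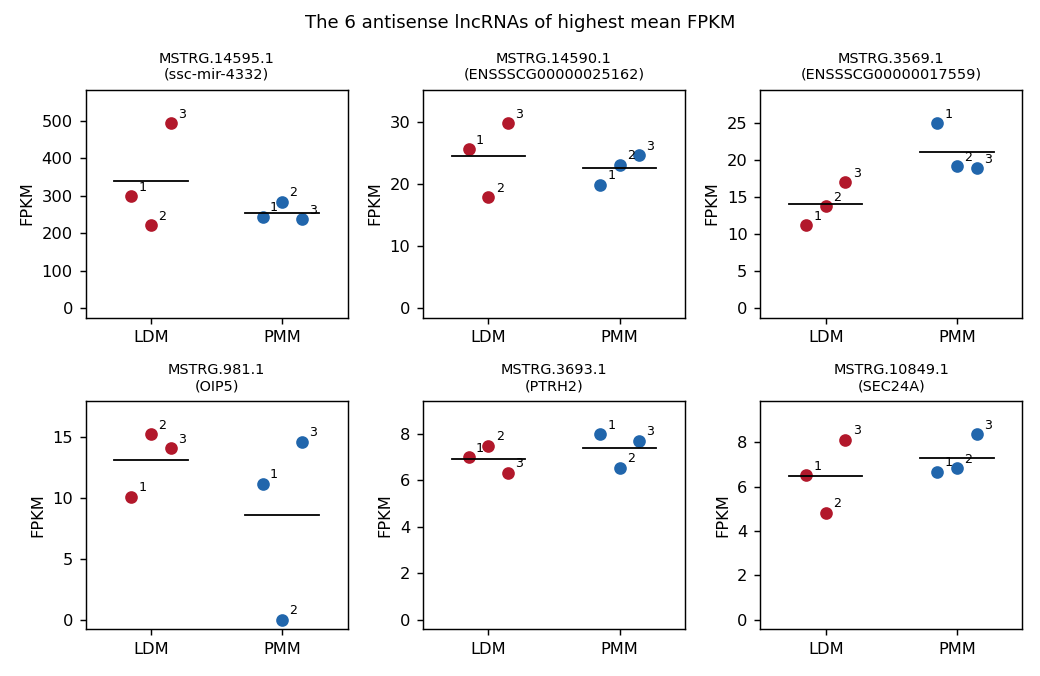
FPKM (vertical axes, each starting near 0) of the 6 antisense lncRNAs of highest mean level in the 3 LDM libraries (red) and the 3 PMM libraries (blue), with the replicate number beside each point, the mean as a line and the gene on the opposite strand in brackets. The transcript facing OIP5 was at 0 in PMM replicate 2 and between 10.1 and 15.2 FPKM in the other libraries, and the one facing PTRH2 stayed between 6.32 and 7.97 FPKM.

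Such zeros were frequent. In 69 cases, spread over 58 of the antisense lncRNAs, 1 library of a muscle was at 0 while the other 2 were not, and 68 of the 69 were of single-exon transcripts. The lower of the other 2 values would have given 100 reads or more in 15 of these cases and fewer than 30 in 29. After OIP5, the largest such gap was in MSTRG.15184.1, facing ENSSSCG00000020901, at 4.79, 0 and 0 FPKM in LDM and 0, 7.27 and 8.09 FPKM in PMM, where 1100 reads would have been expected in PMM replicate 1. MSTRG.9701.1, facing the ciliary gene TMEM216, was at 2.36, 3.50 and 1.11 FPKM in LDM and 3.17, 2.99 and 0 FPKM in PMM, with 611 reads expected in PMM replicate 3. These transcripts were chosen after their values were seen. Values of 0 are therefore given here as listed.

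The number of antisense lncRNAs listed above 0 differed between the muscles by less than the SD of either. There were 133, 140 and 120 in LDM (131 ± 10.1, SD, n = 3) and 132, 119 and 123 in PMM (125 ± 6.66, SD, n = 3). The difference of 6.33 gave p = 0.4 in a two-sided exact permutation test, for which 3 against 3 libraries allow no p under 0.1. At a minimum of 1 FPKM the order turned, with 59, 110 and 46 in LDM against 82, 79 and 65 in PMM, a difference of -3.67. In each library a larger share of the antisense lncRNAs was listed, 68.8% to 80.9%, than of the other lncRNAs, 51.2% to 70.1%.

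To compare the muscles transcript by transcript, limma was fitted to log2(FPKM + 1) of all 1721 transcripts above 0 in all 3 libraries of at least 1 muscle. Of the antisense lncRNAs, 109 of 173 passed this filter, 80 through both muscles, 17 through LDM alone and 12 through PMM alone. The latter 29 passed because of the muscle in which they were high, so counts over the tested transcripts are descriptions. At an adjusted p under 0.05, 0 antisense lncRNAs were higher in LDM and 0 in PMM, beside 0.174% of all transcripts tested in either direction. At an unadjusted p under 0.05 there were 7 of 109 (6.42%), 2 higher in LDM and 5 higher in PMM, beside 7.84% of all tested. With a difference of at least 1 on the log2 scale as well, 1 was higher in LDM and 2 in PMM, while the background was 1.34% and 2.44% of all tested. Groups that did not overlap were found for 5 antisense lncRNAs higher in LDM (4.59%, background 5.87%) and 9 higher in PMM (8.26%, background 9.01%). Each of these shares lay close to that of the whole table and rested on few transcripts, so no difference from it is claimed.

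The median difference of the 109 was -0.08 on the log2 scale, beside -0.01 over all 1721. By sign, 49 of the 109 were higher in LDM and 60 in PMM. Scaling the libraries by their median ratio moved the median of all transcripts by about 0.1, from -0.01 to 0.09, and turned the split among the antisense lncRNAs to 62 higher in LDM and 47 in PMM. In 81 of the 109 the difference was under 0.5 in size. The 1 added to FPKM shrinks differences at low levels, so a small difference does not mean like levels. MSTRG.11212.2, facing MDH2, had a mean 2.39 times as high in PMM, yet a difference of -0.33.

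**Figure D4:**
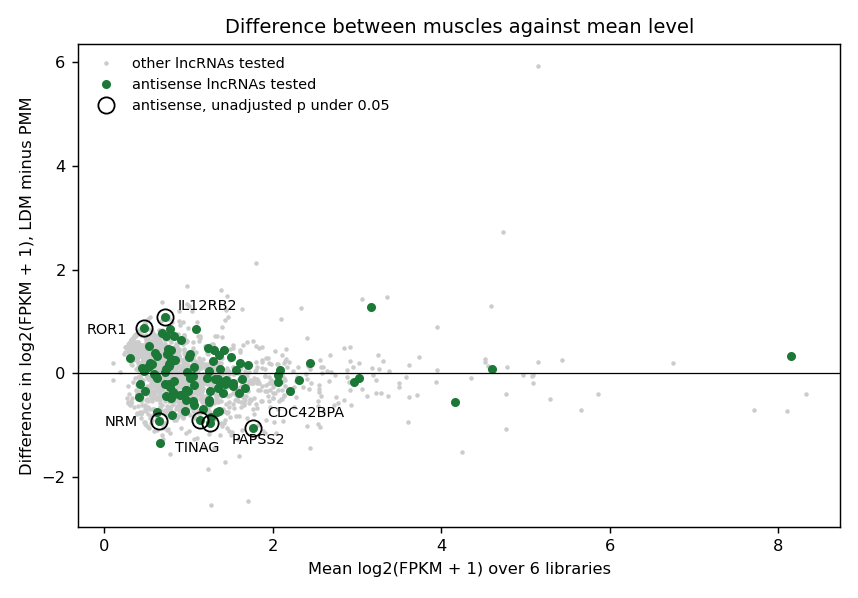
Difference between the muscles (vertical axis, LDM minus PMM, in log2(FPKM + 1)) against the mean level over the 6 libraries (horizontal axis, log2(FPKM + 1)) for the 109 tested antisense lncRNAs (green) and the other tested lncRNAs (grey), with rings and gene names for 6 of the 7 antisense lncRNAs at an unadjusted p under 0.05. The green points lie within the cloud of grey ones, and the 6 ringed transcripts had means of 0.527 to 2.66 FPKM.

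Of the spliced antisense lncRNAs tested, MSTRG.2218.1 had the largest difference, and was higher in PMM. It has 4 exons at chr10:16929294-16937969 and faces CDC42BPA, the gene of a kinase that acts on actin and myosin below the small GTPase CDC42. It was at 2.08, 1.30 and 0.850 FPKM in LDM and 3.95, 4.39 and 3.36 FPKM in PMM, without overlap. Its mean was 2.76 times as high in PMM (3.90 ± 0.518, SD, n = 3) as in LDM (1.41 ± 0.625). The difference of -1.05 ± 0.36 gave an adjusted p of 0.462.

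A further 3 at an unadjusted p under 0.05 and higher in PMM faced NRM, TINAG and PAPSS2. MSTRG.16523.1, facing NRM, which encodes a protein of the inner nuclear membrane, was at 0.268, 0 and 0.182 FPKM in LDM and 1.40, 1.20 and 0.880 FPKM in PMM, which is at most 20 reads in any library. The 2-exon MSTRG.16605.1, facing TINAG, a basement membrane gene known from kidney, was at 0.378, 1.08 and 0.462 FPKM in LDM and 1.43, 2.11 and 2.54 FPKM in PMM. Each of these had its lowest PMM library above its highest LDM library.

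PAPSS2, which encodes the enzyme that makes the sulphate donor for proteoglycans and steroids, was faced by a pair of antisense lncRNAs on the same strand, 1157 bases apart. The single-exon MSTRG.6620.1 (chr14:108789444-108795678) was at 0.0294, 1.71 and 0.829 FPKM in LDM and 2.92, 2.11 and 2.02 FPKM in PMM, a difference of -0.95 ± 0.41 (adjusted p = 0.596), which was -0.58 without LDM replicate 1. The 2-exon MSTRG.6619.1 was at 0.733, 1.45 and 0.746 FPKM in LDM and 2.43, 1.97 and 1.30 FPKM in PMM. Here PMM replicate 3 lay below LDM replicate 2, and the difference was -0.55 ± 0.37 (adjusted p = 0.690).

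On the LDM side, 2 antisense lncRNAs had an unadjusted p under 0.05. MSTRG.16045.1 is a single exon of 6433 nucleotides at chr6:134092531-134098963, facing IL12RB2, which encodes a chain of the interleukin-12 receptor of lymphocytes. It was at 1.34, 2.07 and 0.954 FPKM in LDM and 0, 0 and 0.456 FPKM in PMM, a difference of 1.09 ± 0.39 (adjusted p = 0.462). An intronic lncRNA of the same gene, MSTRG.16047.1, was at 0.806, 1.52 and 0 FPKM in LDM and 0.239, 0.0785 and 0.208 FPKM in PMM, and its muscles overlapped.

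The other was the 2-exon MSTRG.16090.1, facing ROR1, the gene of a receptor for Wnt ligands. It was at 0.144, 2.03 and 0.904 FPKM in LDM and 0.0834, 0 and 0 FPKM in PMM. The muscles did not overlap, but LDM replicate 1 was close to PMM replicate 1, and the difference was 0.87 ± 0.39 (adjusted p = 0.601). Without LDM replicate 2 it was 0.52.

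**Figure D5:**
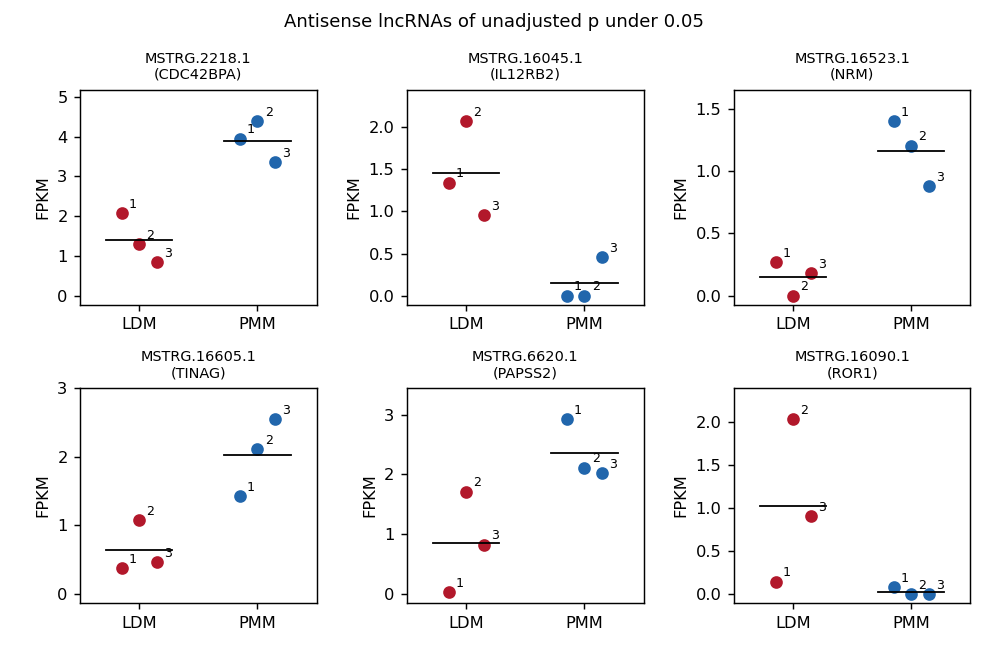
FPKM (vertical axes) of 6 of the 7 antisense lncRNAs at an unadjusted p under 0.05 in the 3 LDM libraries (red) and the 3 PMM libraries (blue), with the replicate number beside each point, the mean as a line and the gene on the opposite strand in brackets. The muscles did not overlap in any of the 6 panels.

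Of the next antisense lncRNAs by p, 3 were higher in PMM by their means. MSTRG.4805.1, facing SYN2, which encodes the synaptic vesicle protein synapsin II, was steady within each muscle at 1.01, 1.04 and 0.920 FPKM in LDM and 2.26, 2.59 and 2.07 FPKM in PMM. Its mean was 2.33 times as high in PMM, and the difference was -0.73 ± 0.35 (adjusted p = 0.622). The 5-exon MSTRG.1169.1, facing the alpha-kinase gene ALPK2, was at 0.175, 2.13 and 0.558 FPKM in LDM, whereas PMM held 1.35, 3.87 and 1.95 FPKM. PMM was higher in each of the 3 pairs of same-numbered libraries (adjusted p = 0.247 with the replicate block), and the difference of -0.85 was -0.55 without LDM replicate 1 and -0.56 without PMM replicate 2. Its shorter 2-exon isoform MSTRG.1169.2 followed the same order of libraries within LDM and within PMM, with LDM replicate 2 and PMM replicate 2 highest. MSTRG.11368.2, facing SH2B1, the gene of an adaptor of insulin and leptin receptors, was at 0.136, 0.271 and 0.173 FPKM in LDM and 1.83, 0.234 and 1.30 FPKM in PMM, with PMM replicate 2 among the LDM values. The adjusted p of these last transcripts was 0.622 in each case.

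Those next by p and higher in LDM by their means were 6 in number, and 5 of them were highest in LDM replicate 2. The 2-exon MSTRG.6435.1, facing VCL, which encodes vinculin of cell adhesions and muscle attachment sites, was at 0.159, 3.85 and 1.19 FPKM in LDM and 0.494, 0.105 and 0.264 FPKM in PMM. MSTRG.12978.1, facing the mitochondrial fission gene MTFR1, was at 0.695, 2.44 and 0.598 FPKM in LDM and 0.203, 0 and 0.536 FPKM in PMM. In the latter the muscles did not overlap. Without LDM replicate 2 the differences were 0.32 for the transcript facing VCL and 0.42 for that facing MTFR1, against 0.85 and 0.78 with it. Without LDM replicate 1 the former was 1.35. The 3-exon MSTRG.4001.1, facing FXR2, the gene of an RNA-binding protein, was the exception, with LDM replicate 2 the lowest of LDM at 3.89, 0.485 and 2.22 FPKM, and 0.973, 0.377 and 0.451 FPKM in PMM. LDM was higher in each of the 3 pairs of same-numbered libraries (adjusted p = 0.260 with the replicate block), and the difference of 0.86 was 0.47 without LDM replicate 1 and 1.33 without LDM replicate 2. Adjusted p-values were 0.629, 0.622 and 0.622 for these 3.

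MSTRG.10668.1, facing the RNA polymerase III subunit gene POLR3G, was at 1.03, 1.43 and 0.960 FPKM in LDM and 1.15, 0 and 0 FPKM in PMM (adjusted p = 0.647), and its difference of 0.72 was 1.09 without PMM replicate 1. MSTRG.14398.1, facing the ubiquitin ligase adaptor gene ASB8, was at 1.66, 2.12 and 0.561 FPKM in LDM and 0, 1.24 and 0.488 FPKM in PMM (adjusted p = 0.676), and its difference of 0.65 was 0.36 without PMM replicate 1. The sixth was the transcript facing OIP5, with a difference of 1.28 ± 0.66 (adjusted p = 0.622). With the replicate number as a block its adjusted p was 0.00207, in a fit that replaced its own spread (SD 1.68) by that of transcripts of like level. Over the alternatives its adjusted p ran from 0.00207 to 0.9998, and without PMM replicate 2, the library at 0, its difference was 0.02, and without PMM replicate 3 it was 2.0. With the block, 1 antisense lncRNA was called higher in LDM, this one, and 1 higher in PMM, beside 2.79% of all 1721 transcripts in either direction.

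Genes of energy metabolism and contraction were looked up in lists. The 35 transcripts whose gene is an Ensembl identifier without a symbol could not be placed in any list. Of 96 listed genes of mitochondria and oxidative metabolism, 3 were opposite an antisense lncRNA, with 4 transcripts of which 2 were tested and 0 passed in either direction. One was the transcript facing MTFR1 above. The 3-exon MSTRG.11212.2, facing MDH2, the mitochondrial malate dehydrogenase of the citric acid cycle, was at 0.182, 0.382 and 0.186 FPKM in LDM and 1.01, 0.456 and 0.329 FPKM in PMM, so that PMM replicate 3 lay within the LDM range. PDK4, the kinase that shuts off pyruvate dehydrogenase, was faced by a pair of single-exon transcripts 683 bases apart, and neither passed the filter. MSTRG.18840.1 was at 1.28, 0 and 0.176 FPKM in LDM and 0.420, 0.115 and 0 FPKM in PMM, and MSTRG.18839.1 was at 1.46 FPKM in LDM replicate 1 and at 0 in the other 5 libraries.

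Of 47 listed genes of glycolysis and glycogen, 1 was faced. This was PFKFB1, which sets the level of the activator of phosphofructokinase, and MSTRG.19510.1 opposite it was at 0.542, 2.11 and 0.443 FPKM in LDM and 0.692, 1.27 and 0 FPKM in PMM. Its ranges overlapped (adjusted p = 0.855). Of 72 listed genes of the contractile apparatus and calcium handling, 1 was faced as well, namely CAPN3, the muscle-specific calpain. The antisense MSTRG.959.1 was at 0, 2.33 and 0 FPKM in LDM and 0, 0.898 and 0.501 FPKM in PMM, and was not tested. An intronic lncRNA of CAPN3, MSTRG.960.1, was highest in the same library at 0.327, 1.51 and 0.241 FPKM in LDM and 0, 0.422 and 0.183 FPKM in PMM. Among the transcripts with a gene symbol, none faced a gene of the lists for fatty acid metabolism and PPAR signalling (57 genes), muscle transcription factors, growth and fibre-type signalling (74), HOX and other patterning (60), chromatin and transcription machinery (77), or of any of the 6 lists of markers of adipocytes, immune cells, fibroblasts and pericytes, endothelium, nerve and Schwann cells, and blood. Genes of related function outside these lists were faced, such as ACOX2, which encodes a peroxisomal acyl-CoA oxidase, and CBX1, which encodes a heterochromatin protein, both chosen after their values were seen.

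A pair of spliced antisense lncRNAs, grouped here after their values were seen, faced other genes known from muscle. The 3-exon MSTRG.8050.1, facing the small heat shock protein gene HSPB3, was at 1.99, 1.75 and 1.60 FPKM in LDM and 1.39, 1.02 and 0.595 FPKM in PMM. Its muscles did not overlap, yet the difference of 0.49 did not pass the test (adjusted p = 0.728). The 4-exon MSTRG.821.1, facing MYZAP, which encodes a protein of the cell junctions of heart muscle, was at 2.18, 2.32 and 4.92 FPKM in LDM and 2.48, 4.20 and 3.79 FPKM in PMM, and its ranges overlapped.

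The antisense lncRNAs of most exons were of modest level. MSTRG.19284.1, with 9 exons over chrX:19096080-19133331, faced CNKSR2, the gene of a signalling scaffold. It was at 1.63, 1.87 and 0.667 FPKM in LDM and 3.46, 1.02 and 2.03 FPKM in PMM. MSTRG.17982.1, with 7 exons over chr8:112059343-112150773, faced PDE5A, which breaks down cyclic GMP, and was at 0.784, 1.23 and 1.61 FPKM in LDM and 0.721, 1.91 and 0.578 FPKM in PMM. In both the muscles overlapped. The 5-exon MSTRG.16951.2 opposite COMMD4 had a mean of 0.736 FPKM.

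Of the 6 with 4 exons, the transcripts facing CDC42BPA and MYZAP are given above. MSTRG.1350.1, facing the proteasome subunit gene PSMA3, ranged widely within LDM, at 0.140, 3.14 and 1.97 FPKM, and stood at 0.901, 1.85 and 1.32 FPKM in PMM. An intronic lncRNA of PSMA3, MSTRG.1349.1, was at 0, 1.45 and 0 FPKM in LDM and 0, 0.361 and 0.404 FPKM in PMM. The other 3 faced ZNF582, ENSSSCG00000008399 and IGLV-9, with means of 0.742, 1.14 and 0.538 FPKM.

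Among those of 3 exons, MSTRG.2421.1 faced ACO1, the cytosolic aconitase that also regulates iron metabolism, at 0.362, 0.717 and 0.894 FPKM in LDM and 0.749, 1.80 and 1.64 FPKM in PMM (adjusted p = 0.728). MSTRG.11959.1, facing the mitochondrial carrier gene SFXN5, was the highest after SEC24A at 7.19, 3.94 and 3.87 FPKM in LDM and 4.64, 3.90 and 3.77 FPKM in PMM. LDM replicate 1 alone stood apart there. MSTRG.12881.1, MSTRG.13057.1 and MSTRG.18059.1, facing OTUD6B, TIPRL and GSTCD, had means of 1.92, 1.60 and 0.827 FPKM, and MSTRG.8840.1, facing ENSSSCG00000026672, had a mean of 0.601 FPKM. MSTRG.4020.1, facing KCNAB3, the gene of a potassium channel subunit, was at 0.560, 1.20 and 2.28 FPKM in LDM and 0.172, 0.995 and 1.5 FPKM in PMM.

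Of the 23 genes faced by a pair of antisense lncRNAs, 5 were faced by isoforms of 1 locus, and all 10 of these isoforms were listed in all 6 libraries. TOPORS, the gene of a ubiquitin and SUMO ligase, was faced by MSTRG.2418.1 (0.993, 1.14 and 3.38 FPKM in LDM, 1.01, 2.57 and 3.38 FPKM in PMM) and MSTRG.2418.2 (0.328, 1.39 and 0.665 FPKM in LDM, 0.594, 2.08 and 1.14 FPKM in PMM). The longer isoform peaked in replicate 3 of both muscles and the shorter one in replicate 2 of both. Isoforms of a locus share sequence, so their values are estimates that depend on each other.

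A further 17 genes were faced by transcripts of separate loci on 1 chromosome, in each case on the same strand, with gaps of 271 to 118531 bases (median 2256). In 3 of them no library listed both transcripts. Opposite TCF7, a transcription factor gene of Wnt signalling, MSTRG.10832.1 was at 1.35 FPKM in LDM replicate 2 and 0.274 FPKM in PMM replicate 1, and MSTRG.10833.1 at 1.83 FPKM in LDM replicate 1 alone. Opposite NEPRO, with a gap of 362 bases, MSTRG.5438.1 was at 3.26 FPKM in LDM replicate 2 and 2.84 FPKM in PMM replicate 2, and MSTRG.5437.1 at 1.27 FPKM in LDM replicate 1 alone. The third pair faced ENSSSCG00000030311.

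Small RNA genes other than ssc-mir-4332 were faced by low transcripts. U6, the name of many copies of a spliceosomal RNA gene, was given for MSTRG.12772.1 on chromosome 4, at 1.34 FPKM in LDM replicate 2 alone, and for MSTRG.16003.1 on chromosome 6, at 0.119 FPKM in LDM replicate 3 and 1.10 FPKM in PMM replicate 1. A lncRNA of another class that overlaps an exon of a U6 gene on chromosome 6, MSTRG.15322.1, was at 1.08, 1.48 and 0.459 FPKM in LDM and 1.44, 0.354 and 0.423 FPKM in PMM. Reads of such repeated genes can be assigned to the wrong copy, so these values are uncertain. MSTRG.12711.1, facing a 5S_rRNA gene and chosen after its values were seen, was at 1.83, 2.12 and 0.311 FPKM in LDM and 1.79, 1.65 and 0.853 FPKM in PMM.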

How the data were processed

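The authors depleted total RNA of ribosomal RNA, sequenced paired reads, aligned them with Tophat at default settings and assembled transcripts, for which the methods name Cufflinks while the identifiers begin with MSTRG. They kept transcripts of low coding potential by the deposited CPC and CNCI scores. The stated filter on exon number would leave out single exons, yet the table holds 116 single-exon antisense lncRNAs. The submitters' processing notes name Sscrofa 11.1. The deposited FPKM and the deposited read coverage, a signal per base, were used as given. The other deposited values are exon numbers and lengths. Reads were estimated as coverage times length over 150 bases. No sequences are shown.

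FPKM were tested as log2(FPKM + 1) with limma 3.58.1 in R 4.3.3 (moderated spread, trend, two-sided, Benjamini-Hochberg adjustment over all 1721 transcripts above 0 in all 3 libraries of a muscle), after a test on simulated data. The simulated levels were raised well above the real ones, so that test did not cover values near 0. Python 3.11.15, pandas 2.3.3, numpy 2.4.6 and matplotlib 3.10.9 were used. The call rules were an adjusted p under 0.05, or a difference of at least 1 in log2(FPKM + 1) together with an unadjusted p under 0.05. No p under 0.1 is possible in an exact permutation test of single values.

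Libraries were grouped by their labels. Same-numbered libraries of the muscles deviated together (correlations of 0.239, 0.123 and 0.168, against -0.179 to 0.0423 for other pairs). The main fit and the permutation test did not pair the libraries, and the replicate number was used as a block in an alternative only. With the block, 2.79% of all 1721 transcripts had an adjusted p under 0.05 in limma, beside 0.174% in the main fit. The study calls the libraries of a muscle biological replicates. It harvested both muscles from the same set of pigs and drew the sequenced samples from these at random. No label ties a number to a pig, so which libraries share an animal is not known. The main fit and the permutation test thus treat as independent libraries that may share an animal.

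Named were transcripts at an unadjusted p under 0.05, the 8 of smallest p in each direction, the 6 of highest mean FPKM, those of more than 2 exons, up to 5 per gene list, those facing small RNA genes and those of up to 3 shared genes. Some of these are not reported here. The members and the lists were chosen with earlier results of these data known. Alternatives were pseudocounts of 0.1 and 0.01, no filter, a mean of at least 0.5 FPKM, median-of-ratios scaling, no trend, the replicate block and leaving out each library.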

Additional observations from a re-analysis of the deposited data

How the results depend on the processing

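All 16 antisense lncRNAs whose differences were followed kept their direction in all 13 alternatives. They had been picked by the smallest p in each direction from the same libraries, so a kept direction was largely fixed in advance. For the transcript facing OIP5 it was kept at a difference of 0.02 without PMM replicate 2. In 204 of these 208 fits the side of the threshold (adjusted p under 0.05) was kept, and 4 fits passed it. The transcript facing OIP5 passed with no filter and with the replicate block. Its difference was 1.28 in each of these and in the main fit. Its SE was 0.342 with no filter and 0.299 with the block, against 0.661 in the main fit. The 0 in PMM replicate 2 was part of all these fits. The number at an adjusted p under 0.05 higher in LDM was thus 1 with no filter (9 of all 4046 transcripts) and 1 with the replicate block (19 of all 1721). Higher in PMM it was 1 with a pseudocount of 0.01 (20 of all 1721) and 1 with the replicate block (29). The main fit gave 0 in both directions. The number was also 0 in both directions whichever library was left out, beside at most 2 higher in LDM and 4 higher in PMM among all transcripts.

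At an unadjusted p under 0.05 and a difference of at least 1, 1 of 109 antisense lncRNAs was higher in LDM, beside 23 of all 1721 transcripts. This count was 2 with pseudocounts of 0.1 and 0.01 (86 and 92 of all), with median-of-ratios scaling (29) and with the replicate block (28). With no filter it was 2 of 173, beside 34 of all 4046. The count higher in PMM was 2 of 109, beside 42 of all 1721. It was 6 with a pseudocount of 0.1 (78 of all), 4 with 0.01 (68) and 1 with median-of-ratios scaling (20). When a library was left out, the counts were 0 to 4 higher in LDM and 1 to 8 higher in PMM, of 115 to 122 tested. Higher in PMM were 8 and 4 with PMM replicate 1 or 3 left out (62 of all 1922 and 76 of all 1937) and 3 with PMM replicate 2 (58 of 1920). There were 6 with LDM replicate 2 (82 of 1949) and 1 with LDM replicate 3 left out (43 of 2061). Higher in LDM were 4 with LDM replicate 1 left out (61 of 2088) and 0 with PMM replicate 2 (25 of 1920). There were 2 with LDM replicate 3 (103 of 2061), PMM replicate 1 (23 of 1922) or PMM replicate 3 left out (22 of 1937). The cause was not tested. The median difference stayed between -0.25 and 0.08, or -0.13 and 0.01 when a library was left out. The difference in listed transcripts, 6.33, was -3.67 at a minimum of 1 FPKM. The number of reads behind a value depends on the length of the transcript as well as on FPKM. In all, 64 of the 173 antisense lncRNAs were not tested.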
